A study of Homo sapiens with 18 samples.

Results

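The splicing regulators described here are the genes of 3 families, the SR proteins (SRSF genes), the heterogeneous nuclear ribonucleoproteins (HNRNP genes) and the CDC2-like kinases (CLK genes), in human multiple myeloma cells treated with RSL3. Members were the genes with a symbol of the form SRSF, HNRNP or CLK1 to CLK4, pseudogenes left out, with at least 10 raw counts in at least 3 libraries. Of 41 such genes, 34 were members, out of 43735 genes in the count table: 11 of 12 SRSF genes, 20 of 25 HNRNP genes and 3 of 4 CLK genes. All 34 had at least 10 counts in all 18 libraries and passed the filter on low counts, which kept 14281 genes. HNRNPR, the member with the fewest reads, had 27 counts in its lowest library. The 7 genes left out were CLK2 and HNRNPCL1 to HNRNPCL4, each listed at 0 in all libraries, SRSF12 with at most 4 counts and HNRNPH2 with at most 1. Whether reads of CLK2 and HNRNPH2 were assigned to other genes was not tested.

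Cells were of the glucocorticoid-sensitive myeloma line MM1S and of MM1R, a resistant line of the same origin. Each line gave 3 untreated libraries, 3 libraries after 3 h in 5 µM RSL3, and 3 libraries in which 2 h in 2 µM Fer-1 preceded the same dose and time of RSL3. By blocking GPX4, which detoxifies lipid hydroperoxides, RSL3 induces ferroptosis, whereas Fer-1 (ferrostatin-1) traps lipid radicals. Replicates 1, 2 and 3 were passages 4, 6 and 7 of MM1R cells and passages 16, 22 and 23 of MM1S cells, and each passage held 1 library of every treatment. No library was from cells given Fer-1 alone, so an effect of Fer-1 itself and its effect on the response to RSL3 cannot be told apart. Each line is a single cell line grown in culture.

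SR proteins bind exonic enhancers through RNA recognition motifs and recruit the spliceosome through domains rich in arginine and serine, while many hnRNP proteins bind silencers and oppose them. CLK kinases phosphorylate the arginine and serine domains in the nucleus, which sets where SR proteins are and how they act. Several of these genes regulate their own mRNA through retained introns or exons with a premature stop, and CLK1 and CLK4 are known for transcripts with retained introns. The values here are counts per gene, which do not tell isoforms apart.

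Expression is given in CPM, the read count of a gene relative to the total count of its library after TMM scaling. Totals per library were 17635438 to 19368343 counts and TMM factors 0.864 to 1.06. All 4 genes that check the response rose with RSL3 in both lines. HMOX1, the heme oxygenase that responds to oxidative stress, was at 9.09 to 25.4 CPM in untreated and at 237 to 2298 CPM in RSL3 libraries. With Fer-1 and RSL3 it was at 685 to 1463 CPM. All 4 were also higher with Fer-1 and RSL3 than in untreated cells averaged over lines, with log2FC of 6.17 for HMOX1 (5.79 with RSL3), 8.80 for HSPA6 (9.59), 3.93 for the chaperone gene DNAJB1 (3.89) and 2.7 for the cystine transporter gene SLC7A11 (2.26). The library MM1S RSL3 replicate 1 stood apart, with the lowest TMM factor and with HSPA6, a heat shock protein gene, at 4321 CPM against 64.5 and 82.8 CPM in the other two libraries of its group. The library MM1R Fer-1 and RSL3 replicate 2 did not match its line label in full. Over 5 genes that separate the lines, it lay at a median of 51.6% of the way from the MM1R to the MM1S level. Main results are also given without these libraries. All 8 plasma cell markers were expressed, with summed levels of 4385 to 6247 CPM over the libraries. SDC1 and TNFRSF17 were lower with RSL3 averaged over lines (log2FC -0.45 and -0.53) and CD38 higher (0.54), 3 of the 8 being called. With Fer-1 and RSL3 against untreated, the same 3 were called, with log2FC of -0.60, -0.78 and 0.74, and the summed level was 5221 to 5411 CPM against 5809 to 6247 CPM in MM1R cells, without overlap, and 4385 to 5181 against 4990 to 5581 CPM in MM1S cells. RSL3 libraries of MM1R cells, at 5097 to 5808 CPM, also lay below all untreated ones. In MM1S cells, RSL3 libraries were at 5210 to 5489 CPM, within the untreated range. The part of such shifts in the results was not tested. Of 10 markers of other cell types 5 passed the filter, with summed levels of 36.2 to 42.5 CPM in untreated and 36.9 to 46.9 CPM in RSL3 libraries of MM1R cells and of 27.5 to 37.4 and 31.8 to 45.0 CPM in MM1S cells. CD3D, COL1A2 and MS4A1, which define T cells, fibroblasts and B cells, had at most 1 count in any library, and CD14 and LYZ of monocytes at most 7. CD3E, a T cell receptor subunit gene, was at 3.26 to 11.5 CPM, HBB, the beta globin gene, at 3.4 to 12.7 CPM, and PECAM1, an endothelial gene that plasma cells also express, at 9.79 to 24.9 CPM over the libraries. EPCAM was at 0.313 to 1.51 CPM, and COL1A1, a collagen gene, was higher with RSL3 (log2FC 1.94, FDR = 0.0398), with 19.5 CPM in MM1S RSL3 replicate 1 and at most 3.93 CPM in all others. In these bulk samples, fewer cells of a type and less RNA per cell cannot be told apart.

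In untreated cells, the members spanned a wide range of expression. Per kilobase of exon and averaged over both lines, HNRNPA1, a repressor of splice sites, had the highest level (241 CPM per kb), ahead of HNRNPF (213), HNRNPK (173), HNRNPAB (153) and SRSF2 (135). SRSF2, also called SC35 and a marker of nuclear speckles, was the highest of the SR proteins on this scale, followed by SRSF1 (77.9) and SRSF3 (70.5). The kinases lay lower, with CLK1 at 15.1, CLK3 at 4.0 and CLK4 at 2.67 CPM per kb. Exon length here joins the annotated exons of all isoforms, so the ranks depend on how many are annotated. It was 19.7 kb for CLK3, 5.12 kb for CLK1 and 22.5 kb for HNRNPU. Before division by length, these genes were at 78.8, 77.5 and 800 CPM. HNRNPR (0.452) and HNRNPL (0.449) were the lowest members, at 1.77 to 5.42 and 2.38 to 4.73 CPM in single libraries. Whether reads of these genes were lost or assigned elsewhere in counting was not tested, so their low counts need not mean low expression.

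The summed level of the 20 HNRNP members was 7679 to 8986 CPM in untreated MM1R libraries, 7212 to 9149 CPM with RSL3 and 6738 to 8612 CPM with Fer-1 and RSL3. In MM1S, the ranges were 8518 to 9389, 8501 to 9136 and 7696 to 8566 CPM. For the 11 SRSF members, the sums were 2354 to 2679, 2162 to 2587 and 2178 to 2628 CPM in MM1R cells and 2643 to 2923, 2656 to 2799 and 2436 to 2682 CPM in MM1S cells. The ranges of treated and untreated libraries overlapped for both families in each line. The sum of the 3 kinases was 145 to 204 CPM without treatment and 155 to 381 CPM with RSL3 in MM1R cells, and 174 to 198 and 171 to 785 CPM in MM1S cells, and its upper end with RSL3 lay above all untreated libraries.

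Which members responded to RSL3 was tested in each line and averaged over both lines with edgeR's quasi-likelihood test and Benjamini-Hochberg adjustment over all 14281 genes (FDR). In MM1R cells, 0 of 34 members had an FDR under 0.05, where 3.36% of all genes did. An unadjusted p under 0.05 was found for 4 members and 2639 of the 14281 genes, and DESeq2 called 0 members and 943 genes. In MM1S cells, 0 members were called against 3.67% of all genes. There, 5 members and 2779 genes had an unadjusted p under 0.05, while DESeq2 called 1 member, SRSF5, and 1039 genes. Averaged over lines, 2 of 34 members were called, where 15.5% of all genes were. CLK1 rose (8.7% of all genes were called higher) and HNRNPF fell (6.81% were called lower). CLK1 was the only member that also passed a log2FC of 1, as did 3.24% of all genes. With passage as a block, which pairs the treatments within a passage, 11 members were called in the averaged comparison (4 higher and 7 lower, 30.4% of all genes), 3 in MM1R cells (13.1%) and 4 in MM1S cells (13.3%). SRSF4, HNRNPAB and HNRNPF were lower in both lines in this fit, and SRSF5 was higher in MM1S cells. With the block and without MM1S RSL3 replicate 1, these 4 were no longer called in MM1S cells, and without MM1R RSL3 replicate 1 the 3 were no longer called in MM1R cells. Without the latter library 6 members were called in the averaged comparison, and without the former 12. The share of all genes called in these fits is not given here, so shifts of members and of all genes cannot be told apart. The median log2FC of the members averaged over lines was 0.00, as was that of all genes tested, and 17 of the 34 were higher, where 7138 of the 14281 genes were.

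**Figure D1:**
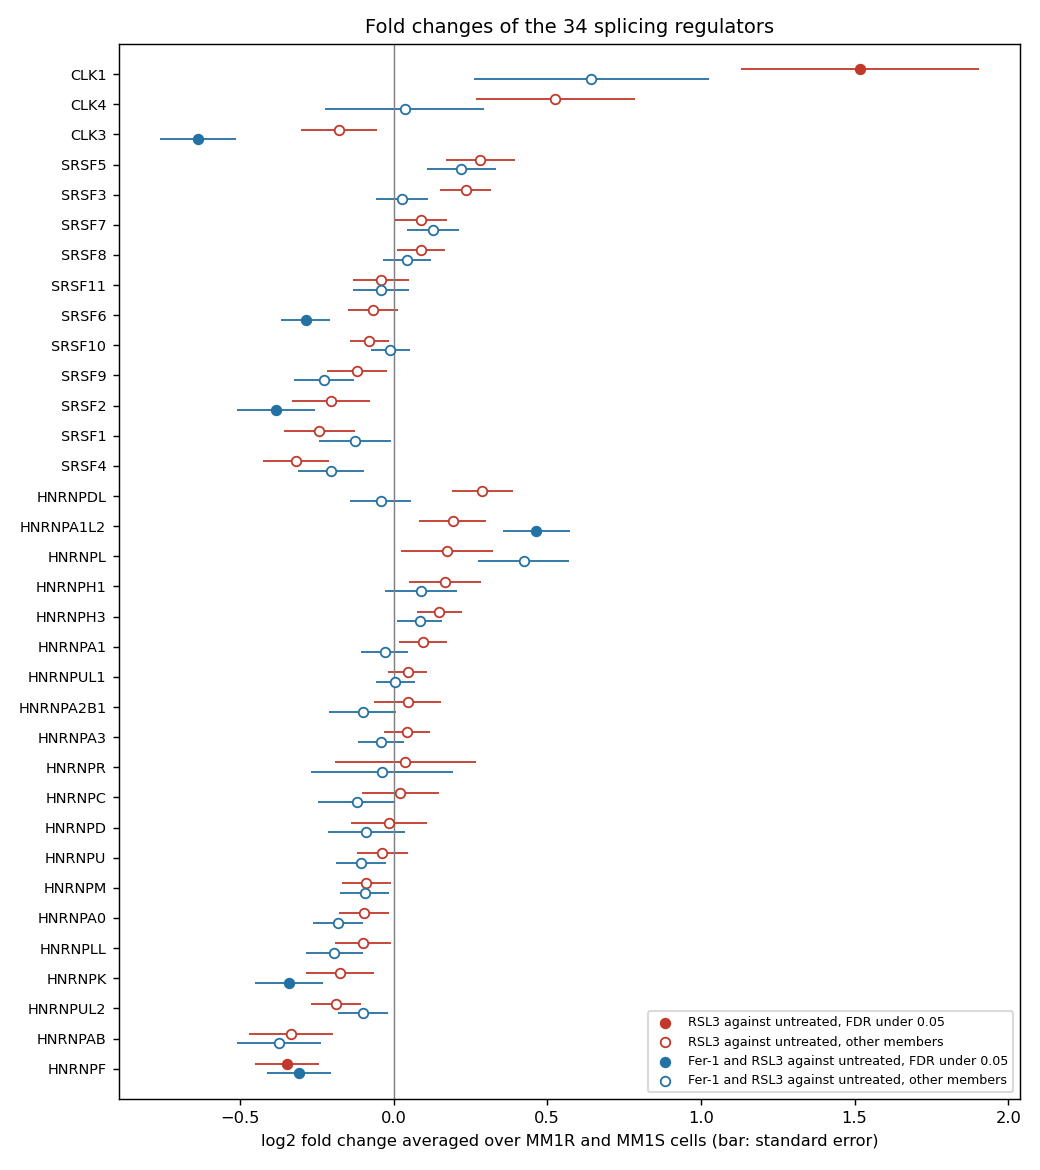
Log2 fold change (x axis, bars give 1 standard error) of each of the 34 members (y axis, by family) averaged over MM1R and MM1S cells, for RSL3 against untreated (red) and for Fer-1 and RSL3 against untreated (blue). Filled circles have an FDR under 0.05, and CLK1 lies far to the right of all other members with RSL3, at 1.52, while CLK3 lies lowest with Fer-1 and RSL3, at -0.64.

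CLK1, on chromosome 2 (201717732 to 201729414 in hg19, minus strand), showed the largest difference of the members. In MM1R cells, it was at 95.2, 62.7 and 54.5 CPM in untreated replicates 1, 2 and 3, at 177, 77.8 and 269 CPM with RSL3, and at 96.9, 122 and 108 CPM with Fer-1 and RSL3. In MM1S, it was at 92.3, 84.0 and 76.3 CPM in untreated replicates, at 628, 109 and 103 CPM with RSL3, and at 177, 108 and 115 CPM with Fer-1 and RSL3. RSL3 libraries were above the untreated library of their passage in 6 of 6 passages, and the groups did not overlap in MM1S cells but did in MM1R cells. In MM1R cells the log2FC was 1.30 ± 0.55 (SE, FDR = 0.207), in MM1S cells 1.73 ± 0.55 (FDR = 0.0875). Averaged over lines it was 1.52 ± 0.39 (edgeR quasi-likelihood, FDR = 0.0149), and 1.25 (FDR = 0.0117) with passage as a block. Without MM1S RSL3 replicate 1, it was 0.82 (FDR = 0.0283), and leaving out any 1 of the 18 libraries kept the call (FDR up to 0.04). Within 1 line, the value without that library was 0.34 (FDR = 0.784) in MM1S, and 1.31 in MM1R, where it then passed the test (FDR = 0.0167). Without MM1R RSL3 replicate 3, it was 0.85 (FDR = 0.504) in MM1R.

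The rise of CLK1 was uneven between libraries. Replicate 3 of MM1R cells and replicate 1 of MM1S cells, with the highest CLK1 among the RSL3 libraries of their line, also had the highest HSPA6 there, at 1386 and 4321 CPM. The other RSL3 libraries had 175.5 and 92.4 CPM of HSPA6 in MM1R cells and 64.5 and 82.8 CPM in MM1S cells. The part of the heat shock response in the CLK1 values was not tested.

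CLK4, the closest relative of CLK1, on chromosome 5 (178029665 to 178057616, minus strand), was lower in all libraries. Untreated MM1R replicates had 26.1, 19.2 and 17.1 CPM, RSL3 replicates 33.3, 21.8 and 36.97 CPM, and Fer-1 and RSL3 replicates 21.5, 23.7 and 23.9 CPM. For MM1S, the values were 27.7, 19.96 and 17.0 CPM without treatment, 55.9, 20.5 and 14.9 CPM with RSL3, and 26.9, 17.7 and 16.9 CPM with Fer-1 and RSL3. RSL3 exceeded the untreated library in 5 of 6 passages, and the groups overlapped in both lines. The averaged log2FC of 0.53 ± 0.26 did not pass the test (FDR = 0.183, with the block 0.0571), and it was 0.14 (FDR = 0.67) without MM1S RSL3 replicate 1. Without MM1S RSL3 replicate 3 it was 0.69 (FDR = 0.0462).

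CLK3, on chromosome 15 (74890841 to 74937755, plus strand), is another kinase of the family that acts on SR proteins. It was at 82.5, 77.8 and 73.7 CPM in untreated MM1R replicates, at 72.5, 55.0 and 74.4 CPM with RSL3, and at 50.1, 50.1 and 52.8 CPM with Fer-1 and RSL3. In MM1S, it was at 78.2, 80.1 and 80.4 CPM without treatment, at 101, 61.7 and 53.5 CPM with RSL3, and at 47.7, 55.2 and 48.4 CPM with Fer-1 and RSL3. The Fer-1 and RSL3 libraries lay below all untreated libraries in both lines, while RSL3 libraries overlapped the untreated ones. For RSL3 against untreated, the averaged log2FC was -0.18 (FDR = 0.363), but -0.33 (FDR = 0.0137) without MM1S RSL3 replicate 1, the library in which CLK3 was highest. For Fer-1 and RSL3 against untreated, CLK3 fell in both lines, with log2FC in MM1R cells of -0.61 ± 0.18 (FDR = 0.0385), in MM1S cells of -0.66 ± 0.18 (FDR = 0.0415) and of -0.64 ± 0.12 (edgeR quasi-likelihood, FDR = 0.00195) averaged. Without MM1R Fer-1 and RSL3 replicate 2, the averaged value was -0.63 (FDR = 0.00556), that in MM1R -0.60 (FDR = 0.111) and that in MM1S -0.66 (FDR = 0.0516).

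**Figure D2:**
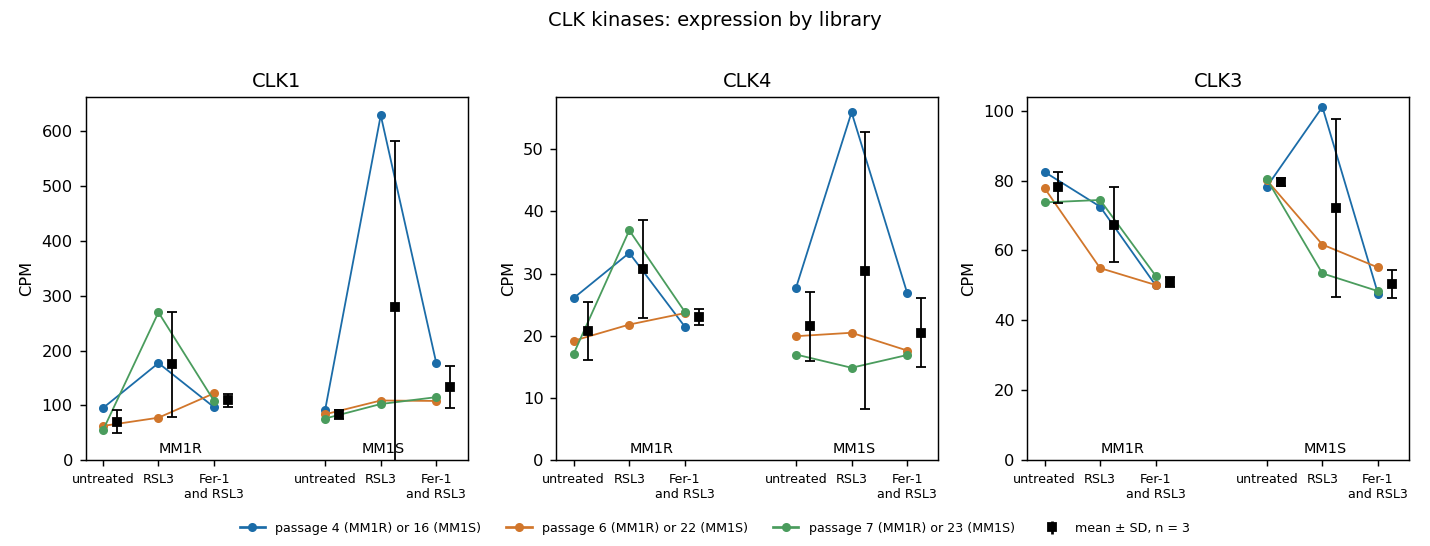
Expression in CPM (y axes, from 0) of CLK1, CLK4 and CLK3 in all 18 libraries, by line and treatment (x axis). Coloured lines join the libraries of 1 passage, black squares with bars give the mean ± SD of 3 libraries (the CLK1 bar of MM1S RSL3 is cut at 0), and MM1S RSL3 replicate 1 (passage 16) is the highest library for all 3 kinases, at 628, 55.9 and 101 CPM.

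The promoters of the kinases are shown because CLK1 and CLK4 had the largest positive fold changes with RSL3 and CLK3 the lowest with Fer-1 and RSL3. RefSeq promoter sequences of GRCh38.p14, 250 bases before to 50 bases after each start, were found for 32 of the 34 members. Capitals mark matches, on either strand, to TGACNNNGC, the core of the antioxidant response element, in lines that run 5′ to 3′ on the strand of the gene. For CLK3 both listed starts, 7464 bases apart, are given, and the second listed start of CLK1 lies 97 bases from the one shown.
CLK1, chr2:200864609-200864908, minus strand: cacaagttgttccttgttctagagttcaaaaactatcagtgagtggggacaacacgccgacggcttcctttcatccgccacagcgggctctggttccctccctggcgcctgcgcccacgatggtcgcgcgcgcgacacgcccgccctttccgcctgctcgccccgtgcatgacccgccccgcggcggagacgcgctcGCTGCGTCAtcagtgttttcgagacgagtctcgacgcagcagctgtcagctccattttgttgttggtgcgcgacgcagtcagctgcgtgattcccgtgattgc
CLK4, chr5:178627001-178627300, minus strand: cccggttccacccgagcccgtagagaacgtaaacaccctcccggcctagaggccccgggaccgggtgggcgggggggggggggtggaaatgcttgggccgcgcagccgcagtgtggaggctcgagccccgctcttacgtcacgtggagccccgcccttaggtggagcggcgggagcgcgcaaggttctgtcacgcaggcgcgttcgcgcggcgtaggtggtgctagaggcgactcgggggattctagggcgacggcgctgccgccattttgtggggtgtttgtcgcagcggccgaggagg
CLK3 first start, chr15:74608122-74608421, plus strand: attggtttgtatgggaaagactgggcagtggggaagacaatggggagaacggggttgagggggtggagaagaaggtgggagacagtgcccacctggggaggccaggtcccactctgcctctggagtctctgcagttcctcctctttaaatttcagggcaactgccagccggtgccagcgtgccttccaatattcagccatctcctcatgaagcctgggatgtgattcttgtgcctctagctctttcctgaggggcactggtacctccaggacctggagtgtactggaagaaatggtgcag
CLK3 second start, chr15:74615586-74615885, plus strand: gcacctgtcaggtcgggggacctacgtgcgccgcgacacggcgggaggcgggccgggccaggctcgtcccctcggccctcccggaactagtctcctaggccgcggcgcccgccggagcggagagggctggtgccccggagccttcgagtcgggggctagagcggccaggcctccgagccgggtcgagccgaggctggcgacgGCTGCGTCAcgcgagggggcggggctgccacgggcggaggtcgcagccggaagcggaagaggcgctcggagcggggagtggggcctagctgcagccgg
The CLK1 promoter and the second CLK3 promoter each held 1 such match with the same letters, GCTGCGTCA on the shown strand, beginning 53 and 48 bases before the start. The core was present in 13.3% of all 35116 promoters and in 9 of the 48 listed for the 32 members, belonging to CLK1, CLK3, HNRNPA2B1, HNRNPAB, HNRNPF, HNRNPK, SRSF1 and SRSF5. Other motifs searched on both strands were a pair of heat shock units, spelled GAANNTTC (in 6.77% of all promoters) or TTCNNGAA (7.74%), the cyclic AMP response element TGACGTCA (1.85%), whose letters can overlap the antioxidant core, and the C/EBP-ATF element TGATGCAA (0.866%). None of these was in a kinase promoter, which says only that the letters are not in these windows. The matches are a description of letters, and no binding was measured.

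Among the SR proteins, 0 of 11 passed the test for RSL3 averaged over lines (lowest FDR 0.0545), and 4 of 11 were higher, with a median log2FC of -0.07. SRSF4, a large SR protein, came closest, at 132, 138 and 136 CPM in untreated MM1R replicates and 95.0, 115 and 107 CPM with RSL3. In MM1S cells, it was at 127, 146 and 148 CPM without treatment and at 82.7, 140.2 and 124 CPM with RSL3. It was below the untreated library in 6 of 6 passages, and the groups did not overlap in MM1R cells. Its log2FC was -0.32 ± 0.11 (FDR = 0.0545) and -0.33 with passage as a block (FDR = 0.00219). Without MM1S RSL3 replicate 1, it was -0.22 (FDR = 0.0927), and with the block -0.27 (FDR = 0.00186). Within MM1S cells, the fit with the block gave -0.31 (FDR = 0.0415), and -0.18 (FDR = 0.221) without that library.

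SRSF3, the smallest SR protein and an adaptor for mRNA export, and SRSF5 lay on the other side. SRSF3 was at 423, 478 and 548 CPM in untreated MM1R replicates and at 541, 579.9 and 640.1 CPM with RSL3, and at 482, 534 and 547 against 623, 572 and 585 CPM in MM1S cells. RSL3 was higher in 6 of 6 passages, without overlap in MM1S cells, with a log2FC of 0.23 (FDR = 0.0687, with the block 0.021), and of 0.22 (FDR = 0.109) without MM1S RSL3 replicate 1. SRSF5 was at 121, 106 and 113 CPM in untreated and at 216, 129.99 and 135 CPM in RSL3 replicates of MM1S cells, where its log2FC was 0.50 (FDR = 0.0882, with the block 0.0229). Leaving out MM1S RSL3 replicate 1 gave 0.23 (FDR = 0.434) there, and 0.29 (FDR = 0.0953) with the block. Averaged over lines, SRSF5 had a log2FC of 0.28 (FDR = 0.0985, with the block 0.0271), which was 0.15 (FDR = 0.236) without MM1S RSL3 replicate 1. With the block, SRSF1, also called ASF/SF2, and SRSF2 were also called lower with RSL3, with log2FC of -0.26 (FDR = 0.0119) and -0.22 (FDR = 0.016), while without it they had log2FC of -0.24 (FDR = 0.176) and -0.20 (FDR = 0.306). Without MM1R RSL3 replicate 1, the latter values were -0.15 (FDR = 0.399) and -0.12 (FDR = 0.607), and those with the block -0.21 (FDR = 0.0496) and -0.18 (FDR = 0.0638). Part of the exons of SRSF1, SRSF2 and SRSF9 (27.7% to 43.6%) overlaps another gene, so that their counts are less certain. The smallest values were those of SRSF11 (-0.04) and SRSF6 (-0.07).

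Among the hnRNP genes, HNRNPF was the only one of 20 called with RSL3, and the median log2FC of the 20 was 0.03. HNRNPF, a protein that binds tracts of G, is encoded on chromosome 10 (43881065 to 43904634, minus strand). It was at 615, 662 and 677 CPM in untreated MM1R replicates, at 437, 575 and 557 CPM with RSL3, and at 456, 587 and 572 CPM with Fer-1 and RSL3. In MM1S, it was at 702, 765 and 758 CPM, at 435, 606 and 668 CPM, and at 537, 612 and 606 CPM. All treated libraries lay below all untreated libraries of their line, and HNRNPF was the only member of which RSL3 and untreated libraries did not overlap in both lines, where 11.7% of all genes had such a separation in 1 direction. The log2FC of RSL3 was -0.32 for MM1R (FDR = 0.265, with the block 0.0379), -0.38 for MM1S (FDR = 0.166, with the block 0.0178) and -0.35 ± 0.10 averaged (edgeR quasi-likelihood, FDR = 0.0332, with the block 0.00165). Without MM1S RSL3 replicate 1, the value for MM1S was -0.21 (FDR = 0.564), and -0.27 (FDR = 0.0683) with the block. In the averaged comparison, the call was lost in 6 of 18 fits that left out 1 library, those without MM1R untreated replicate 2 (FDR = 0.0689) or 3 (0.0648), MM1R RSL3 replicate 1 (0.0937), MM1S untreated replicate 2 (0.0704) or 3 (0.0673) or MM1S RSL3 replicate 1 (-0.26, 0.0615).

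HNRNPDL, a relative of the RNA-binding protein HNRNPD, was at 299.7, 334 and 349 CPM in untreated MM1R replicates, at 343, 363 and 452 CPM with RSL3, and at 292, 297 and 343 CPM with Fer-1 and RSL3. For MM1S, the values were 323, 292 and 350.1 CPM, then 500.01, 342 and 379.6 CPM, then 298, 318 and 344 CPM. RSL3 was the highest of the 3 treatments in every passage. The averaged log2FC of RSL3 was 0.29 ± 0.10 (FDR = 0.0599), and 0.28 with the block (FDR = 0.015). Without MM1S RSL3 replicate 1, it was 0.21 (FDR = 0.144).

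HNRNPAB, which binds RNA rich in A and U, was at 254, 311 and 364 CPM in untreated MM1R replicates, at 188, 268 and 276 CPM with RSL3, and at 210.3, 247 and 238 CPM with Fer-1 and RSL3. The MM1S replicates had 312, 350.5 and 354 CPM, then 195, 299.98 and 318 CPM, then 213, 311 and 287 CPM. Both treatments lay below the untreated library in every passage, and only the RSL3 libraries overlapped the untreated ones, at their upper end. The averaged log2FC of RSL3 was -0.33 ± 0.14 (FDR = 0.109), and -0.35 with the block (FDR = 0.00377). Without MM1S RSL3 replicate 1, it was -0.23 (FDR = 0.244). HNRNPK, which binds C-rich RNA, and HNRNPUL2 were also called lower with the block, with FDR values of 0.0244 and 0.0452, and without it they had log2FC of -0.17 (FDR = 0.316) and -0.19 (FDR = 0.13). For HNRNPK, leaving out MM1R RSL3 replicate 1 gave -0.11 (FDR = 0.606), and an FDR of 0.085 with the block. For HNRNPUL2, leaving out MM1S RSL3 replicate 1 gave -0.12 (FDR = 0.286), and an FDR of 0.111 with the block. Of the exonic bases of HNRNPUL2, 44.3% overlap the annotated gene HNRNPUL2-BSCL2 on the same strand, so that its counts are less certain. HNRNPL and HNRNPH1, a G tract binder like HNRNPF, had averaged log2FC of 0.17 and 0.17 (FDR = 0.48 and 0.374), and that of HNRNPH1 was 0.03 (FDR = 0.872) without MM1S RSL3 replicate 1. The smallest values were those of HNRNPC, which binds runs of U, and HNRNPD, also called AUF1, at 0.02 and -0.01.

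Within passages, 4 members were higher with RSL3 in 6 of 6 passages, where 13.8% of all genes were, namely CLK1, SRSF3, HNRNPDL and HNRNPH3. A further 8 were lower in 6 of 6 passages, where 14.9% of all genes were, namely SRSF1, SRSF4, SRSF9, SRSF10, HNRNPA0, HNRNPAB, HNRNPF and HNRNPK. Passage 16 of MM1S cells had the widest spread of the members, from -1.29 for HNRNPR, one of the lowest members, to 2.76 for CLK1 in log2 CPM.

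**Figure D3:**
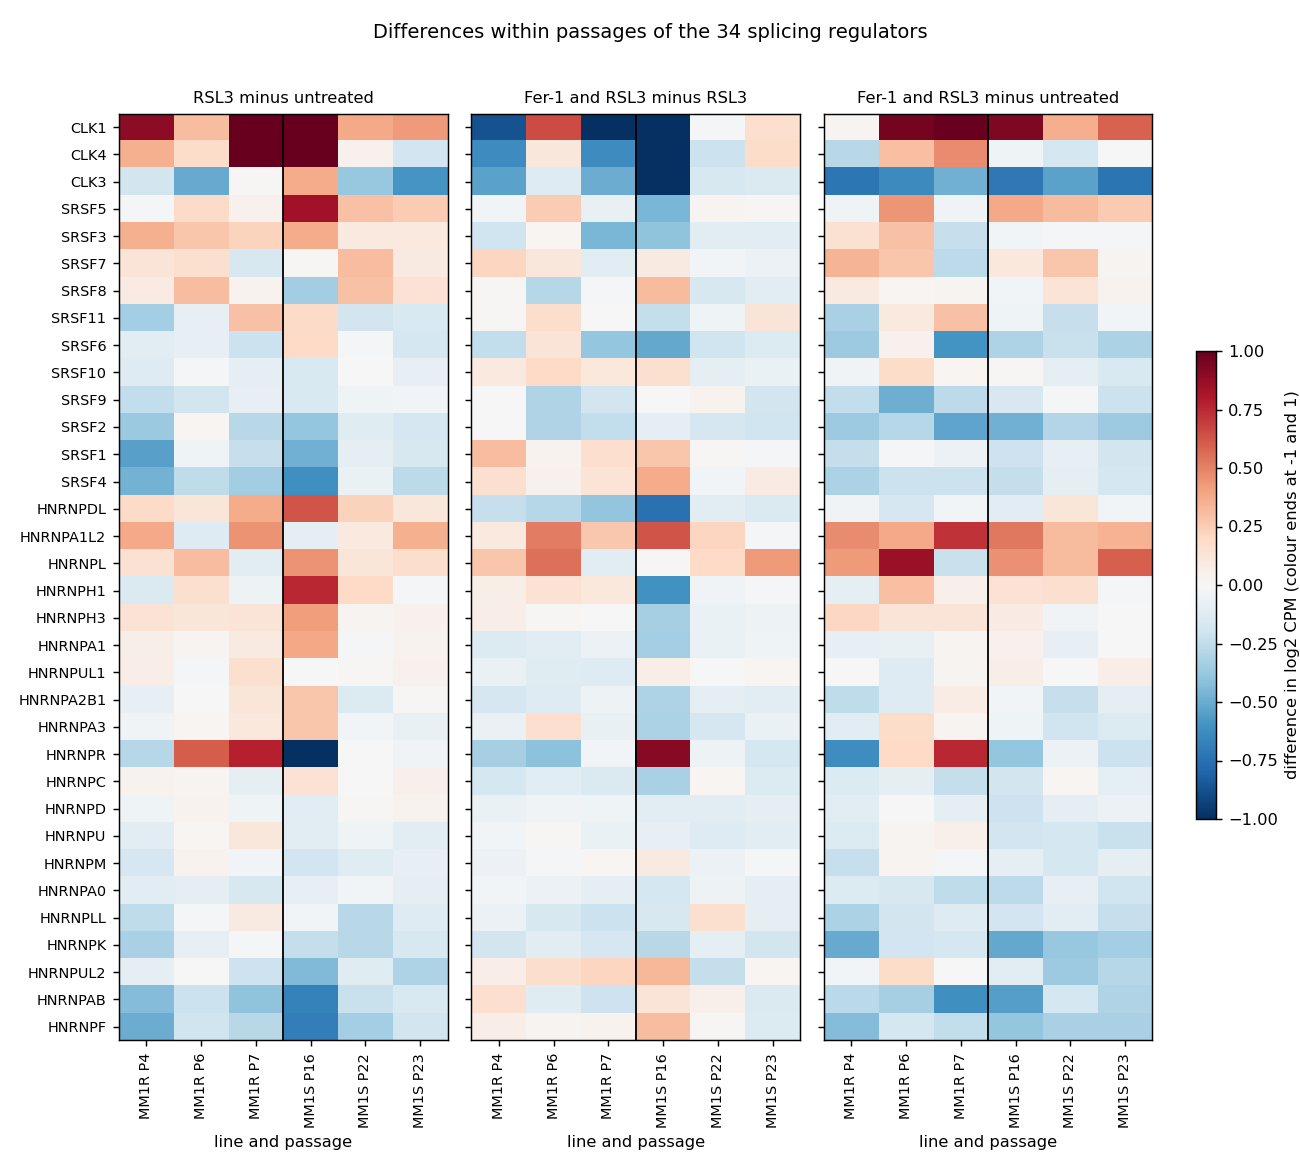
Difference in log2 CPM between 2 libraries of the same passage (colour, red for higher) for the 34 members (rows) and 6 passages (columns) in each of 3 contrasts. With RSL3 minus untreated, CLK1 is red in all 6 passages and HNRNPF blue in all 6, and with Fer-1 and RSL3 minus untreated, CLK3 is blue in all 6.

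The comparison of Fer-1 and RSL3 with RSL3 alone sets cells given Fer-1 before RSL3 against cells given RSL3 only. In MM1R and MM1S cells, 0 members and 0% of all genes were called by edgeR's quasi-likelihood test. An unadjusted p under 0.05 was found for 2 and 3 members, and for 881 and 821 of 14281 genes. DESeq2 called 0 members in each line, and 38 and 6 genes. Averaged over lines, 0 members were called, where 0.119% of all genes were. Here 6 members and 1826 genes had an unadjusted p under 0.05, and DESeq2 called 1 member, CLK3, and 229 genes. With passage as a block, 1 member was called, where 2.37% of all genes were. This was HNRNPDL, which was lower with Fer-1 and RSL3 in 6 of 6 passages (log2FC -0.32, FDR = 0.0477, and -0.33 with FDR = 0.193 without the block). With the block and without MM1R RSL3 replicate 1 or MM1R Fer-1 and RSL3 replicate 2, the FDR was 0.103 or 0.0996. CLK1 had a log2FC of -0.87 ± 0.38 (FDR = 0.349), which was -0.18 (FDR = 0.822) without MM1S RSL3 replicate 1. In MM1S cells, where it was -1.07, leaving out that library gave 0.33 (FDR = 0.998), the opposite direction. CLK1 was lower with Fer-1 and RSL3 in replicates 1 and 3 of MM1R cells and replicates 1 and 2 of MM1S cells and higher in the other two passages. CLK3 had a log2FC of -0.46 ± 0.12 (FDR = 0.14, with the block 0.0657) and CLK4 of -0.49 ± 0.26 (FDR = 0.447), which were -0.30 (FDR = 0.161) and -0.11 (FDR = 0.863) without MM1S RSL3 replicate 1. A total of 7 members were lower in 6 of 6 passages (6.58% of all genes), namely CLK3, HNRNPA0, HNRNPA1, HNRNPA2B1, HNRNPD, HNRNPDL and HNRNPK, and 0 were higher in 6 of 6 (8.05%). The groups were apart in 1 direction in both lines for 0 members (2.34%). The RSL3 libraries stand in this comparison and in that of RSL3 against untreated, so the 2 sets of values share samples.

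Fer-1 and RSL3 against untreated cells averaged over lines is the comparison with the most calls, both among the members and among all genes. In MM1R cells 2 of 34 were called, where 9.22% of all genes were, CLK3 (lower) and HNRNPA1L2 (higher), and in MM1S cells 1 was, CLK3, where 4.61% of all genes were. Averaged over lines, 6 were called, where 19% of all genes were, 1 higher (10.5%) and 5 lower (8.47%), namely HNRNPA1L2 and then CLK3, SRSF2, SRSF6, HNRNPF and HNRNPK. With passage as a block, these counts were 7 (22.2% of all genes), 5 (14.7%) and 12 (33.3%), the last with 2 higher and 10 lower. The members added by the block were HNRNPL (higher) and SRSF4, SRSF9, HNRNPA0, HNRNPAB and HNRNPLL (lower). Of the 34 members, 11 were higher, where 7197 of the 14281 genes were, and the median log2FC was -0.07, beside 0.00 over all genes. The untreated libraries are shared with the comparison of RSL3 and untreated cells.

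SRSF2, on chromosome 17 (74730197 to 74733415, minus strand), was at 312, 383 and 426 CPM in untreated MM1R replicates, at 241, 388 and 351 CPM with RSL3, and at 242, 315 and 296 CPM with Fer-1 and RSL3. The MM1S values were 387, 431 and 464 CPM, then 295, 396 and 414 CPM, then 278, 353 and 359.9 CPM. Fer-1 and RSL3 lay below the untreated library in 6 of 6 passages, without overlap of the groups in MM1S cells, and the averaged log2FC was -0.38 ± 0.13 (edgeR quasi-likelihood, FDR = 0.0442, with the block 0.000401).

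SRSF6, on chromosome 20 (42086533 to 42094686, plus strand), an SR protein that binds exonic enhancers, was at 217, 213 and 237 CPM in untreated MM1R replicates and at 169, 219.9 and 157 CPM with Fer-1 and RSL3. For MM1S, the values were 242, 245 and 263 CPM and 195, 211 and 211 CPM. SRSF6 was lower in 5 of 6 passages, and the exception was the passage that holds MM1R Fer-1 and RSL3 replicate 2, the library between the lines. Its averaged log2FC was -0.29 ± 0.08 (edgeR quasi-likelihood, FDR = 0.0197), and -0.37 (FDR = 0.00231) without that library. With RSL3 alone, SRSF6 had a log2FC of -0.07, at 201, 201 and 204 CPM in MM1R and 278, 242 and 232 CPM in MM1S replicates.

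HNRNPK, on chromosome 9 (86582998 to 86595546, minus strand), was at 851, 919 and 1002 CPM in untreated MM1R replicates, at 679, 866 and 995 CPM with RSL3, and at 599, 805 and 888 CPM with Fer-1 and RSL3. The MM1S values were 981, 1034 and 1118 CPM, then 832, 853 and 1000.3 CPM, then 688, 795 and 883 CPM. In every passage the untreated library was the highest and the Fer-1 and RSL3 library the lowest. The averaged log2FC of Fer-1 and RSL3 against untreated was -0.34 ± 0.11 (FDR = 0.0402, with the block 0.000438), and that of HNRNPF was -0.31 ± 0.10 (FDR = 0.0485, with the block 0.00296).

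In the fit without the block, to which all values of this paragraph belong, these calls lay near the threshold. Of 18 fits that each left out 1 library, HNRNPF stayed called in 3 (those without MM1R RSL3 replicate 1, MM1S RSL3 replicate 1 or MM1S RSL3 replicate 3), with an FDR of up to 0.123 in the others, HNRNPK in 7 (up to 0.102), SRSF2 in 8 (up to 0.111) and SRSF6 in 16 (0.0521 without MM1R and 0.0502 without MM1S Fer-1 and RSL3 replicate 1). Without MM1R Fer-1 and RSL3 replicate 2, SRSF2 had a log2FC of -0.42 (FDR = 0.0483), HNRNPK of -0.36 (FDR = 0.0557) and HNRNPF of -0.34 (FDR = 0.0513). CLK3 and HNRNPA1L2 were called in all 18 fits, at an FDR of at most 0.0065 and 0.0204. Their calls within 1 line were kept in 9 of 18 fits for CLK3 in MM1R cells (FDR up to 0.111), in 8 for CLK3 in MM1S cells (up to 0.139) and in 6 for HNRNPA1L2 in MM1R cells (up to 0.132).

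HNRNPA1L2, an intronless copy of HNRNPA1 on chromosome 13 (53216566 to 53217908, plus strand), was the member that rose. It was at 8.89, 9.26 and 8.34 CPM in untreated MM1R replicates, at 11.6, 8.45 and 11.4 CPM with RSL3, and at 12.4, 12.1 and 13.8 CPM with Fer-1 and RSL3. In MM1S, it was at 10.0, 11.5 and 10.3 CPM, at 9.33, 12.4 and 13.3 CPM, and at 14.5, 14.4 and 13.2 CPM. The Fer-1 and RSL3 libraries lay above all untreated libraries in both lines, with an averaged log2FC of 0.46 ± 0.11 (edgeR quasi-likelihood, FDR = 0.00644) and 0.48 (FDR = 0.0104) without MM1R Fer-1 and RSL3 replicate 2. HNRNPA1 itself had a log2FC of -0.03. All exonic bases of HNRNPA1L2 lie in another annotated gene on the same strand, and HNRNPA1 has 74 annotated pseudogenes, so the source of these reads is uncertain. CLK1 also separated from the untreated libraries in both lines, at a log2FC of 0.64 ± 0.38 that did not pass the test (FDR = 0.261), and passed it without MM1S RSL3 replicate 1 (FDR = 0.0429) and in a fit of only the groups compared (FDR = 0.0066).

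**Figure D4:**
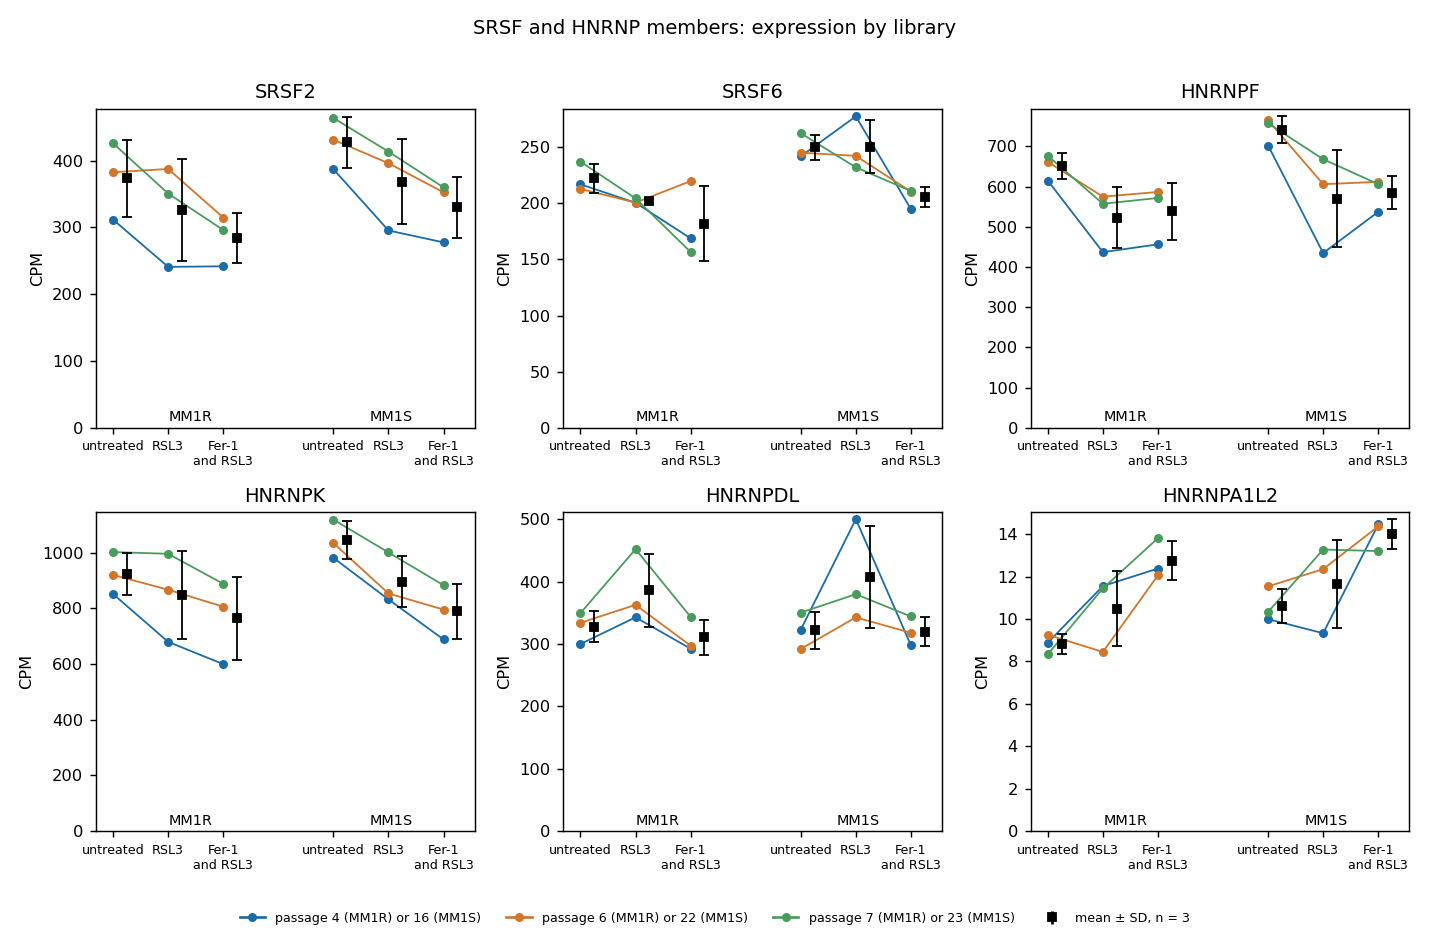
Expression in CPM (y axes, from 0) of 2 SRSF and 4 HNRNP members in all 18 libraries, by line and treatment (x axis). Coloured lines join the libraries of 1 passage and black squares with bars give the mean ± SD of 3 libraries. HNRNPK declines along each line from untreated to Fer-1 and RSL3, HNRNPDL peaks with RSL3, and HNRNPA1L2 ends at 12.1 to 14.5 CPM in the 6 Fer-1 and RSL3 libraries.

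Within passages, CLK1 and HNRNPA1L2 were higher with Fer-1 and RSL3 than without treatment in 6 of 6 passages (17.1% of all genes), and 11 members were lower in 6 of 6 (16% of all genes), namely CLK3, SRSF1, SRSF2, SRSF4, SRSF9, HNRNPA0, HNRNPAB, HNRNPD, HNRNPF, HNRNPK and HNRNPLL. The groups did not overlap in either line for 5 members, 2 higher (CLK1 and HNRNPA1L2) and 3 lower (CLK3, HNRNPAB and HNRNPF), where 14.5% of all genes had such a separation. HNRNPL, which binds CA repeats, had a log2FC of 0.42 (FDR = 0.055, with the block 0.0301) at 2.38 to 4.73 CPM, and with the block but without MM1R Fer-1 and RSL3 replicate 2 its FDR was 0.0973. HNRNPAB had a log2FC of -0.37 (FDR = 0.0672, with the block 0.00189). SRSF9 was at 30.0, 31.4 and 33.8 CPM in untreated and at 25.3, 22.4 and 28.2 CPM in Fer-1 and RSL3 replicates of MM1R cells, which did not overlap, and at 29.2, 34.3 and 35.1 against 26.1, 34.1 and 30.2 CPM in MM1S cells, which did. Its averaged log2FC was -0.23 (FDR = 0.119, with the block 0.0122).

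Between the untreated lines, 1 member was called, where 10.5% of all genes were. HNRNPA3, a relative of HNRNPA1 on chromosome 2 (178077422 to 178088687, plus strand), was at 402, 433 and 418 CPM in MM1R and at 536, 616 and 610.2 CPM in MM1S replicates, without overlap. It was lower in MM1R cells by a log2FC of -0.49 ± 0.11 (edgeR quasi-likelihood, FDR = 0.0074), and the call was kept in all 18 fits without 1 library. This value is uncertain, since 53.6% of its exonic bases overlap NFE2L2 on the opposite strand. Of the 34 members, 27 were lower in MM1R cells, where 7316 of the 14281 genes were, with a median log2FC of -0.12 beside -0.01 over all genes. The lines share no passage number, so line and passage cannot be told apart here. Whether the effect of RSL3 differed between the lines was tested with the interaction term, for which edgeR called 0 members (0% of all genes). DESeq2 also called 0 members and 0 genes. An unadjusted p under 0.05 was found for 0 members and 222 of 14281 genes. A p that misses the threshold does not show that the lines respond alike.

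Other genes of the splicing machinery, from lists chosen for their roles, are given for RSL3 against untreated averaged over lines, where 15.5% of all genes were called, and 30.4% with the block. Of 19 tested SR-related proteins and U2AF subunits, 3 rose and 2 fell. RBM39, a cofactor related to U2AF (log2FC 0.49, FDR = 0.0125), and the enhancer-binding protein TRA2B (0.28, FDR = 0.0193) rose, while the splicing coactivator SRRM1 fell (-0.32, FDR = 0.018). Of 11 other kinases of SR proteins, 2 rose and 2 fell, among them DYRK2 (-0.91, FDR = 0.00468) and HIPK3 (0.43, FDR = 0.0202). Of 11 hnRNP proteins with other symbols, 2 rose and 0 fell, the cold-inducible proteins CIRBP (0.42, FDR = 0.00142) and RBM3 (0.36, FDR = 0.0109). The medians of these 3 lists were -0.04, -0.17 and 0.00. With passage as a block, the counts higher and lower were 4 and 4 for the SR-related proteins, 3 and 4 for the kinases and 2 and 1 for the other hnRNP proteins.

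Of 49 core spliceosome genes, 1 rose and 4 fell, where 15.5% of all genes were called. The U1 protein gene SNRNP70 had a log2FC of -0.30 (FDR = 0.0205) and the helicase DHX15 of -0.43 (FDR = 0.0218). In direction, 8 of 49 were higher, where 7138 of the 14281 genes were, with a median of -0.10. Of 18 genes of nonsense-mediated decay and the exon junction complex, 1 rose and 0 fell, UPF3A, a decay factor (0.64, FDR = 0.00675). Of 26 other RNA-binding splicing regulators, 1 rose and 2 fell, the muscleblind protein gene MBNL2 (1.16, FDR = 0.000307) and TARDBP (-0.34, FDR = 0.0196) among them. With the block, where 30.4% of all genes were called, these 3 lists had 2 higher and 13 lower, 3 higher and 3 lower, and 1 higher and 4 lower. With Fer-1 and RSL3 against untreated, where 19% of all genes were called, the counts were 3 higher and 1 lower for SR-related proteins, 3 and 2 for the kinases, 2 and 0 for the other hnRNP proteins, 2 and 7 for the core spliceosome, 2 and 0 for decay and 3 and 2 for the other regulators. With the block, where 33.3% of all genes were called, they were 3 and 3, 4 and 3, 3 and 4, 3 and 15, 4 and 0, and 4 and 5 in the same order. With Fer-1 and RSL3 against RSL3, edgeR called 0 genes in these 6 lists and 0.119% of all genes (2.37% with the block). An unadjusted p under 0.05 was found for 0 to 5 in each list and for 1826 of 14281 genes. DESeq2 (229 of all genes) and the fit with the block each called 1 core spliceosome gene. MBNL2 (1.33, FDR = 5.26e-05) and SNRNP70 (-0.43, FDR = 0.0016) were called in both comparisons, which share the untreated libraries.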

How the data were processed

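RNA-seq libraries of MM1R and MM1S cells were sequenced as paired reads on a BGISEQ-500. The authors deposited raw read counts per gene symbol for all 18 libraries, which were used here as deposited, and a table of the same counts divided by size factors, which was not used. The submitters' processing notes name FastQC 0.11.5, STAR 2.7.3a, DESeq2 and hg19, and the counting tool, the annotation and the strand setting are not given in the sources used here. Coordinates and exonic lengths are those of the annotation of hg19 used here.

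Genes passing filterByExpr (minimum count 10) were fitted with the edgeR quasi-likelihood test (edgeR 4.0.16, limma 3.58.1, R 4.3.3), with TMM scaling, 6 group means and 12 residual degrees of freedom, and FDR by Benjamini-Hochberg adjustment over all tested genes. The fit was run on simulated counts without passage effects, line differences or libraries that stand apart, so that run says nothing about those. Members and gene lists, and the promoter motifs, were chosen with earlier results of these data known. Named were the CLK genes, members called in any comparison, the 6 SRSF and 8 HNRNP members with the largest and the 2 of each family with the smallest averaged fold change with RSL3, and for the other lists up to 3 called genes. Values of genes with overlaps or pseudogenes were kept.

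The passage in the labels pairs libraries across treatments. Deviations from the group means of libraries of the same passage correlated with a median r of 0.25 in MM1R cells (0.0338 to 0.516, 9 pairs) and 0.416 in MM1S cells (0.216 to 0.681, 9 pairs). Group means without the passage were fitted in the main analysis, and the passage was added as a block (8 residual degrees of freedom) as an alternative. Other alternatives were RLE and upper-quartile scaling, DESeq2 1.42.0, no filter, a minimum count of 50, only the groups compared, and leaving out each library. Leaving out both libraries that stood apart, and leaving out each of 3 libraries in the fit with the block, were added after seeing the data. Replicates are passages of 1 line, so p-values of the main fit measure the spread between passages. With the block, the level of each passage is removed, and p-values measure how treatment differences vary from passage to passage.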

Additional observations from a re-analysis of the deposited data

How the results depend on the processing

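The numbers of members called are given for each alternative that changed them by more than 1.5 times. With passage as a replicate block, 3 members were called for RSL3 against untreated in MM1R (in place of 0), 4 in MM1S (0) and 11 averaged over lines (2), 1 for Fer-1 and RSL3 against RSL3 averaged (0), and 7, 5 and 12 for Fer-1 and RSL3 against untreated in MM1R (2), in MM1S (1) and averaged (6). No paired analysis was possible because the lines share no passage in the comparison of untreated MM1R and MM1S cells. Without a filter on low counts, the numbers for RSL3 against untreated were 2, 2 and 5, those for Fer-1 and RSL3 against RSL3 were 1, 1 and 3, and that for Fer-1 and RSL3 against untreated in MM1S was 2. DESeq2 called 1 member for RSL3 in MM1S, 4 averaged, and 1 for Fer-1 and RSL3 against RSL3 averaged. Among the 14281 genes, DESeq2 called 1039, 2712 and 229 in the same order. DESeq2 was fitted to all genes with any counts and used its own filter, so its adjustment was not over the same genes. For RSL3 averaged, upper-quartile scaling and the stricter filter gave 5 each, and a fit of only the groups compared gave 1. For Fer-1 and RSL3 against untreated, only the groups compared gave 1 in MM1R and upper-quartile scaling 0 in MM1S. Without both libraries that stood apart, 1 member was called for RSL3 in MM1R and 2 for Fer-1 and RSL3 against untreated in MM1S. With the replicate block and without MM1S RSL3 replicate 1, MM1R RSL3 replicate 1 or MM1R Fer-1 and RSL3 replicate 2, the numbers for RSL3 against untreated were 8, 0 and 2 in MM1R, 1, 3 and 2 in MM1S and 12, 6 and 10 averaged. Those for Fer-1 and RSL3 against untreated were 10, 6 and 4 in MM1R, 10, 5 and 5 in MM1S and 15, 12 and 9 averaged, and those for Fer-1 and RSL3 against RSL3 were 2, 0 and 0 in MM1R, 0 in MM1S and 1, 0 and 0 averaged. For alternatives other than DESeq2 and the block on all libraries, the share of all genes called is not given here. This includes the fits that left out 1 library. Shifts of the members and of all genes cannot be told apart in them. The causes were not tested.

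Leaving out 1 library gave 0 to 1 members for RSL3 in MM1R, 0 to 2 in MM1S and 1 to 6 averaged (1 without MM1R untreated replicate 2, 6 without MM1S RSL3 replicate 2). It gave 0, 0 and 0 to 1 for Fer-1 and RSL3 against RSL3, and 0 to 2, 0 to 1 and 2 to 9 for Fer-1 and RSL3 against untreated (2 without MM1R Fer-1 and RSL3 replicate 1, 9 without MM1S RSL3 replicate 1). It gave 1 between the lines and 0 for the interaction. The fold changes recomputed were 92, those of 24 members (the named ones and those called only with the block) in the comparisons in which they are described or were called. Of their values under the alternatives, 2407 kept their side of the threshold, 163 newly passed it and 82 lost it, and 0 that were called changed sign.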
